A study of Caenorhabditis elegans with 2 samples.

Results

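The heterochronic genes of Caenorhabditis elegans set the order and timing of cell fates from one developmental stage to the next, and 10 of them are described here by the sites at which ZTF-16, a zinc-finger protein of the Hunchback and Ikaros type, was recovered in their gene bodies and upstream regions. The genes are lin-14, lin-28, lin-29, lin-41, lin-42, lin-46, lin-66, kin-20, daf-12 and blmp-1, out of 19973 protein-coding genes on the 6 nuclear chromosomes of assembly ce11 (WBcel235). They were chosen by name. Each gene was given its annotated body plus the intergenic sequence upstream of its 5' end, up to the next protein-coding gene or 10 kb, and a peak was counted where its summit lay in that territory. The 10 territories covered 173.6 kb, and they held 5 of the 822 IDR-thresholded peaks, 51 of the 14968 relaxed pooled peaks, 66 of the 21235 relaxed peaks of replicate 1 and 54 of the 18242 of replicate 2.

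The single group consists of whole late embryos of mixed sex, collected 5 hours after synchronisation by bleaching, from strain OP558, which carries unc-119(tm4063) on chromosome III and the transgene wgIs558. That transgene gives ZTF-16 a carboxyl-terminal GFP-FLAG tag in all animals of both biological replicates, and an anti-GFP antibody was used for the chromatin immunoprecipitation and sequencing (ChIP-seq). The irreproducible discovery rate (IDR) scores peaks by how similarly they rank in the replicates. The relaxed lists are deposited as peaks and background for that procedure, so their weaker entries may be background. The IDR-thresholded list holds the 822 strongest pooled peaks, and a single peak in it need not rank alike in both replicates. The labels do not say which promoter drives the tagged gene or whether the untagged protein is also made. No animals without the tagged protein were analysed here, so no site could be set against an untagged sample. Each library's read depth is unknown, since the lists hold no read counts.

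In the larval skin, genes of this pathway act in sequence: early factors hold cells in early fates, microRNAs of the lin-4 and let-7 families lower those factors, and late factors start the adult programme. The early factors include the nuclear protein LIN-14 and the RNA-binding protein LIN-28, and the late ones end in the transcription factor LIN-29. A second branch resembles the animal circadian clock, with LIN-42 as the relative of Period, and another responds to steroid hormone through the nuclear receptor DAF-12. The embryos sampled here precede the larval stages at which most of these genes are known to act. In whole embryos a site bound in few cells and a site bound weakly in many cells cannot be told apart.

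The sites that passed the IDR threshold lay at 4 of the 10 genes: lin-28, lin-42, lin-66 and kin-20. The sequences of the lin-42, lin-66 and kin-20 sites are shown since the results turn on these sites, as the reference bases from 50 bp before to 50 bp after the summit. Each is read 5' to 3' on the strand of the gene, from the RefSeq genome of WBcel235. Capitals mark any match on either strand to a core of the Ikaros family (GGGAA), a run of thymines known for Hunchback (TTTTTT) or a purine repeat known from nematode promoters (GAGAGA).
lin-66, upstream intergenic, chrIV:13887733-13887833, plus strand: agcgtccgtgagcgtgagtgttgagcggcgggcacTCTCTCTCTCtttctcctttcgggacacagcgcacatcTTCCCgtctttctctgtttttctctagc
lin-42, intron, chrII:1246960-1247060, minus strand: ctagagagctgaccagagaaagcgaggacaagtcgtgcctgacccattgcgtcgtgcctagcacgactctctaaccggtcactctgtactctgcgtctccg
lin-42, intron, chrII:1242582-1242682, minus strand: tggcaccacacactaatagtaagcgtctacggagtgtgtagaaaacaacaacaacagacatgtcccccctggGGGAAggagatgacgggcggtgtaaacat
kin-20, intron, chrX:15275555-15275655, minus strand: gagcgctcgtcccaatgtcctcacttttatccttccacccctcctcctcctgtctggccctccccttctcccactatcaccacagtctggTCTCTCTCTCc
The lin-66 and kin-20 windows each hold an unbroken run of alternating T and C, which gives 3 overlapping matches to the reverse complement of GAGAGA. The lin-42 window at chrII:1246960-1247060 holds none of the 3 motifs.

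Of the 5 IDR-thresholded windows at the heterochronic genes, 3 held GAGAGA, 2 held GGGAA and 0 held TTTTTT. Over all 822 IDR-thresholded windows of that length the shares were 19.8% for GAGAGA, 20.9% for GGGAA and 22.3% for TTTTTT. Among the 51 pooled windows at the heterochronic genes 12 held GAGAGA (23.5%), 10 held GGGAA (19.6%) and 17 held TTTTTT (33.3%), against 10.3%, 19.8% and 35.6% of all pooled windows. Most of the 12 windows with GAGAGA lay at kin-20 and lin-66, and the rest at blmp-1, lin-28 and lin-42. The pooled windows of lin-14, lin-29, lin-41 and daf-12 did not hold it. A match describes letters only, and the differences were not tested. The GC content of the 5 windows ran from 46.5% at lin-28 to 58.4% at kin-20, beside 48.8% ± 8.07 (SD over the 822 IDR-thresholded windows).

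The 4 genes with an IDR-thresholded site compare with 5.04% of all protein-coding genes by the same rule. The territories of the 10 genes were long, with a median of 13.8 kb against 3.54 kb over all genes, and a long territory holds more sites. A summit was found at 2 of the 6 genes with a territory of 10 kb or more, where 10.1% of all genes that long had one, and at 2 of the 4 with a shorter territory, where 4.2% did. Per 100 kb of territory there were 2.88 IDR-thresholded summits at the heterochronic genes and 1.02 over all genes, or 0.745 over genes with a territory of 10 kb or more. The relaxed pooled list gave 29.4 summits per 100 kb at the heterochronic genes and 15.8 over all genes. It held a summit at 9 of the 10 genes, where 43% of all genes had one (79.9% of genes with a territory of 10 kb or more and 36.8% of the rest). Replicate 1 alone had a summit at 9 of the 10 genes and replicate 2 at 10, against 52.7% and 49.5% of all genes. None of these differences was tested, since the genes were chosen with earlier results of these data known.

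**Figure D1:**
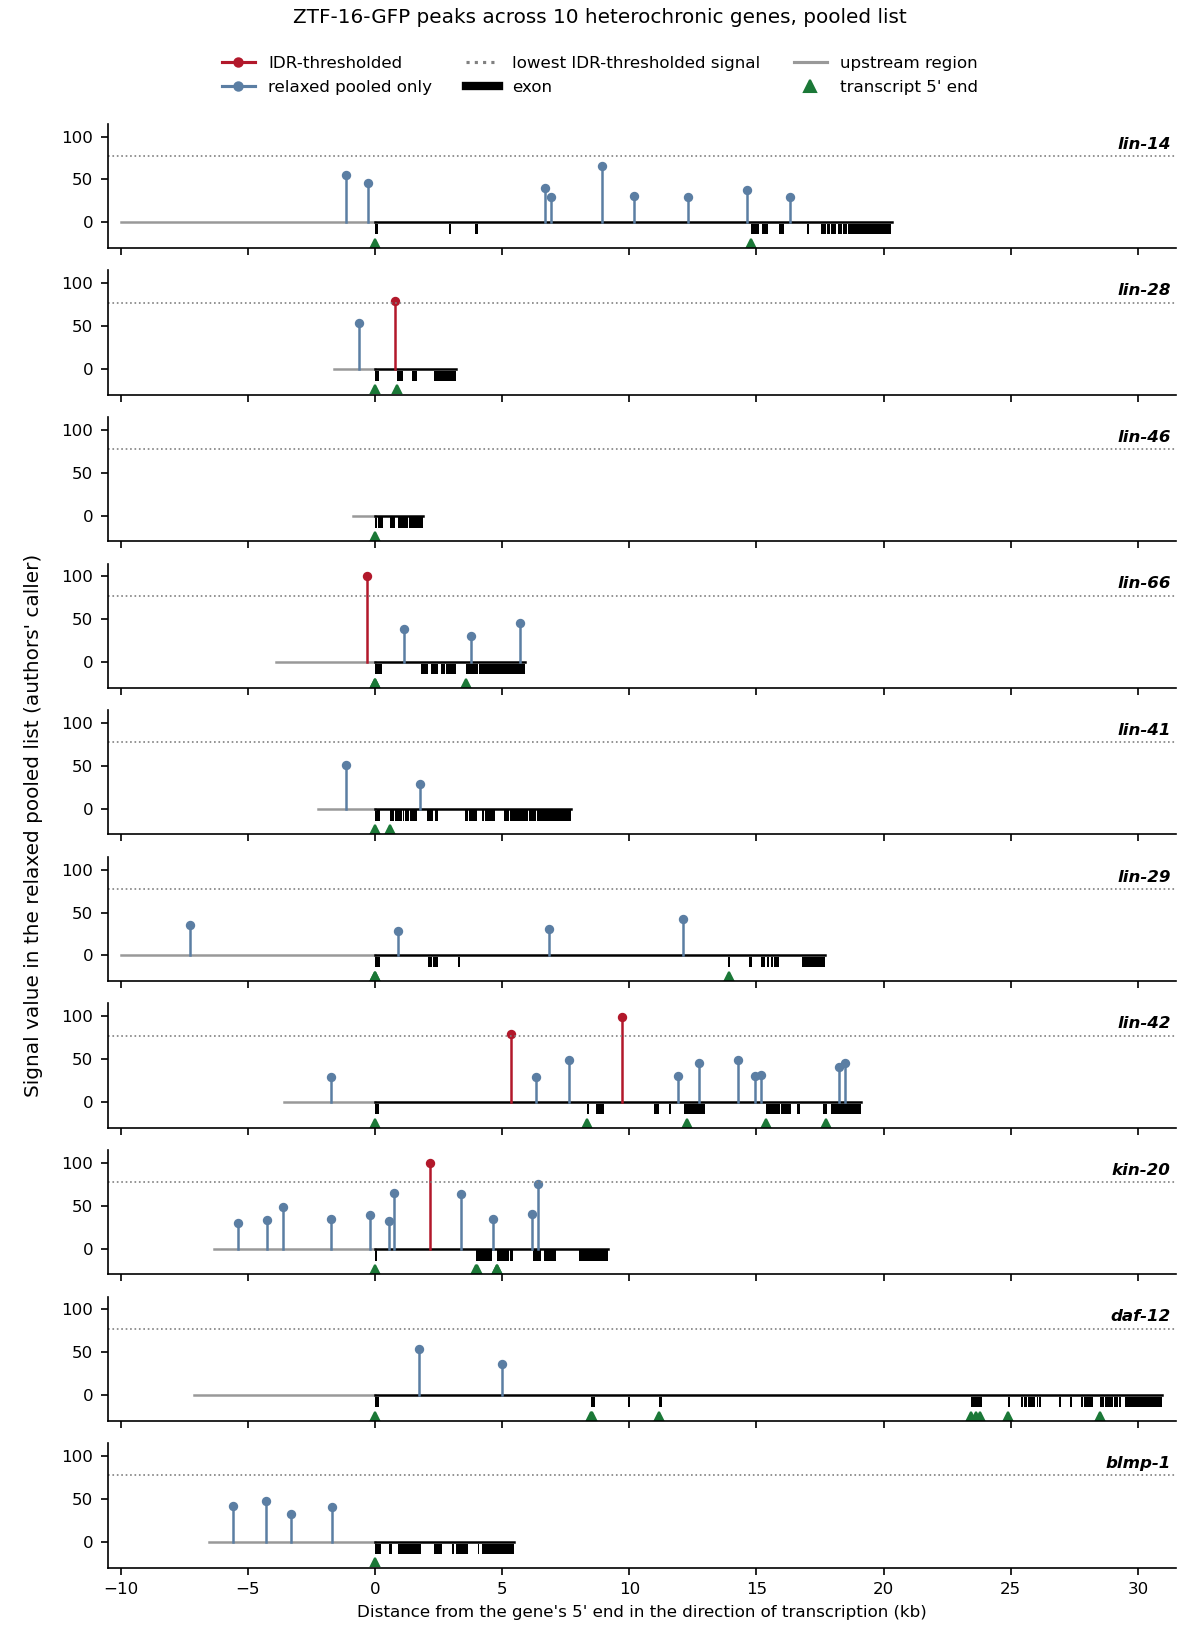
Signal value of each relaxed pooled peak (vertical axis, the authors' caller) against the distance of its summit from the gene's 5' end in kb (horizontal axis), 1 panel per gene. Red stems are IDR-thresholded peaks, blue stems are other pooled peaks, black blocks are exons and triangles are transcript 5' ends. The 5 red stems stand at lin-28, lin-66, lin-42 and kin-20, and lin-46 has no stem.

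Among the early factors, lin-14 had no IDR-thresholded site and lin-28 had 1. The gene lin-14, whose DNA-binding product holds cells in first-stage fates and is a target of the microRNA lin-4, lies at chrX:11465560-11485871 on the plus strand. Its territory held 9 pooled summits, 2 upstream and 7 in introns, of which 6 lay in the third intron of the longer transcript, which spans 11174 bp. The strongest had its summit 8912 bp downstream of the 5' end, with signal 65.1 and rank 1210 in the pooled list. The matched peaks ranked 947 in replicate 1 (signal 40.02) and 3048 in replicate 2 (signal 26.05). This intronic site thus ranked higher in replicate 1 than in replicate 2, and did not reach the 822 strongest pooled peaks. The other lin-14 peaks matched in both replicates were the 2 upstream of the gene, at 1126 bp (signal 54.8, replicate ranks 5777 and 1481) and 259 bp (signal 45.9, ranks 2753 and 9816). A weaker peak (signal 37.5) lay 162 bp upstream of the second annotated lin-14 transcript start and was matched in replicate 1 only, at rank 1857.

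The gene lin-28 encodes an RNA-binding protein that blocks maturation of let-7 and lies at chrI:8407630-8410804 on the minus strand. Its IDR-thresholded summit, at chrI:8410020, was 784 bp downstream of the 5' end, in the first intron of the longer transcript and 100 bp upstream of the start of the shorter one. The pooled signal was 79.7 (rank 777), with matched peaks of signal 49.4 (rank 566) in replicate 1 and 28.4 (rank 2224) in replicate 2. That pooled value is close to the lowest signal in the IDR-thresholded list (77.4), so the site is among the weaker ones of that list. A further pooled peak 647 bp upstream of lin-28 had signal 53.6 and ranked higher in replicate 2 (1657) than in replicate 1 (11468). Both pooled peaks of lin-28 were matched in both replicates.

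The gene lin-46, at chrV:12968855-12970730 on the plus strand, encodes a scaffold-like protein that acts downstream of lin-28. It was the only one of the 10 genes with no pooled summit in its territory, which was also the shortest at 2.75 kb. A pooled peak (signal 54.99, rank 1897) had its summit 884 bp upstream of lin-46, only 12 bp outside the territory and inside the neighbouring gene R186.8, whose 5' end was 11 bp away. It ranked 4001 in replicate 1 and 1394 in replicate 2. A second (signal 40.2) lay 22 bp beyond the 3' end of lin-46, nearest to the 5' end of pnn-1. The replicate 2 list alone held 2 summits inside the territory, both matched to replicate 1 and to these pooled peaks.

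Among the genes that control other members after transcription, lin-66 had the highest pooled signal of the 10 genes and lin-41 had no IDR-thresholded site. The gene lin-66, which is known to lower LIN-28, lies at chrIV:13888079-13893986 on the plus strand. Its IDR-thresholded summit at chrIV:13887783 was 296 bp upstream of the 5' end, with the run of T and C shown above. Signal was 100.8 (rank 476) in the pool, 65.99 (rank 288) in replicate 1 and 40.2 (rank 830) in replicate 2. This was the only one of the 5 sites upstream of its gene. The other 3 pooled peaks of lin-66, inside the gene, had signals of 29.96 to 45.3, and each was matched in 1 replicate only.

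The gene lin-41, at chrI:9334800-9342496 on the minus strand, encodes an RNA-binding TRIM-NHL protein that is a target of let-7 and represses lin-29. Of its 2 pooled peaks the stronger lay 1128 bp upstream, with signal 51.2 (rank 2313) and replicate ranks of 6168 and 1782. The weaker, in an intron, had signal 29.4 and was matched in replicate 1 only (rank 5216). The late gene lin-29 encodes a zinc-finger transcription factor that drives the larval-to-adult switch, and lies at chrII:11917642-11935343 on the minus strand. All 4 of its pooled peaks were weak, with signals of 28.4 to 42.3, where the lowest signal in the pooled list was 28.39. None of the 4 was matched in both replicates within 200 bp: 3 were matched in replicate 1 and 1 in replicate 2. The strongest, in an intron 12101 bp downstream of the 5' end, ranked 4324 in the pool and 1544 in replicate 1. It lay in an intron of 10530 bp, as did a peak 6849 bp downstream (signal 31.02), which is in the annotated non-coding gene Y17G7A.3. The peak at 6849 bp was also overlapped by a weak replicate 2 peak of lin-29 (signal 16.46, rank 14330), whose summit lay beyond the 200 bp.

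The most summits were found at the clock-like pair lin-42 and kin-20, with 12 pooled summits each, some of them of overlapping peaks. Of all protein-coding genes 0.16% had 12 or more, a limit set after these counts were seen. That share is over genes of all lengths, with a median territory of 3.54 kb. The territories of lin-42 and kin-20 span 22.7 and 15.5 kb, and no share at matched length was taken. The gene lin-42 encodes the worm relative of Period and lies at chrII:1233236-1252359 on the minus strand, with 5 annotated transcript starts. Its IDR-thresholded summits were both intronic, and 0.32% of all genes, again of all lengths, had 2 or more such summits. The stronger, at chrII:1242632, lay 9727 bp downstream of the first 5' end and 1403 bp downstream of the second. Signal there was 99.6 (rank 489) in the pool, 62.04 (rank 330) in replicate 1 and 39.4 (rank 860) in replicate 2. The other, at chrII:1247010, lay 5349 bp downstream of the first 5' end and 2975 bp upstream of the second. It was in the 8173 bp first intron of the transcripts F47F6.1d.1 and F47F6.1f.1 alone, and inside the annotated non-coding gene F47F6.13. Signal there was 79.9 (rank 771) in the pool, 32.6 (rank 1670) in replicate 1 and 56.6 (rank 389) in replicate 2. The replicates thus ranked the 2 sites in opposite order. The other 10 pooled peaks of lin-42 had signals of 28.7 to 48.4. The strongest of them lay in introns, 7642 bp downstream (48.45, replicate ranks 3170 and 7695) and 14260 bp downstream (48.41, ranks 2002 and 13993). Overlapping peaks stood at the 3' end of the gene, in untranslated exon sequence, with signals of 45.8 and 41.3. Of the 12 pooled peaks of lin-42, 7 were matched in both replicates.

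The gene kin-20 encodes a casein kinase 1 related to Doubletime of the fly clock and lies at chrX:15268602-15277764 on the minus strand. Its density of pooled summits, 7.74 per 10 kb, was the highest of the 10 genes, followed by lin-42 with 5.29. The IDR-thresholded summit at chrX:15275605 lay 2159 bp downstream of the 5' end, in the 4747 bp first intron of the transcript F46F2.2g.1 alone. It was 1816 bp upstream of the nearest kin-20 transcript start. Signal at this site was 99.3 (rank 493) in the pool, 66.1 (rank 286) in replicate 1 and 28.6 (rank 2175) in replicate 2. A stronger replicate 2 peak of kin-20 (signal 31.4, rank 1574) overlapped the pooled peak, but its summit, at chrX:15275385, lay beyond 200 bp. Next in pooled signal came a peak in coding sequence 6396 bp downstream (75.6, rank 871, just below the threshold), and intronic peaks 763 bp (65.2) and 3387 bp (63.99) downstream. The coding peak ranked 1132 and 1860 in replicates 1 and 2, and the peak at 3387 bp ranked 1885 and 1247. The latter lay 588 bp upstream of a kin-20 transcript start. The peak at 763 bp, in the annotated non-coding gene F46F2.9, ranked 776 in replicate 1 and 5141 in replicate 2. Of the 5 upstream peaks the strongest, 3599 bp upstream (signal 48.5, ranks 5532 and 1413), was nearer to the 5' end of jud-4. A peak just ahead of the gene, 178 bp upstream, had signal 39.7 and ranks of 4481 and 2966. Of the 12 pooled peaks of kin-20, 9 were matched in both replicates, but 4 of these form 2 neighbouring pairs that share 1 replicate 2 peak each. Neighbouring kin-20 peaks overlapped in places, and joining overlapping peaks left 46 of the 51 pooled peaks over all 10 genes.

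The hormone receptor gene daf-12 and the transcription factor gene blmp-1 had no IDR-thresholded site. For daf-12, at chrX:10635908-10666875 on the plus strand, the territory of 38.1 kb was the longest and held only 2 pooled summits, 0.525 per 10 kb. The stronger, in an intron 1731 bp downstream of the 5' end, had signal 54.3 (rank 1960). Within 200 bp of its summit the replicate 2 peak ranked 701 (signal 43.4) and the replicate 1 peak 17238 (signal 15.9). A stronger replicate 1 peak of daf-12 (signal 21.9, rank 6586) overlapped the pooled peak but had its summit, at chrX:10637400, beyond that distance. The second, 5008 bp downstream, had signal 36.3 (rank 7211) and was matched in replicate 1 only. Both lie in the 8353 bp first intron of 1 of the 10 annotated daf-12 transcripts. The replicate lists held more summits in this territory than the pool, 7 in replicate 1 and 5 in replicate 2. For blmp-1, at chrI:10409302-10414773 on the plus strand, which encodes a zinc-finger repressor related to Blimp-1, all 4 pooled summits were upstream and 0 lay in the gene body. With the upstream region ended by a gene of any kind 1 of the 4 remained at blmp-1, and with 1 kb upstream 0 did. The strongest was 4286 bp upstream, with signal 47.99 (rank 2862) and replicate ranks of 5867 and 5069. The 5' end of tag-353 was nearer to that summit than the 5' end of blmp-1. The closest to blmp-1, 1696 bp upstream, had signal 40.9 and was matched in replicate 1 (rank 1976) but not in replicate 2.

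**Figure D2:**
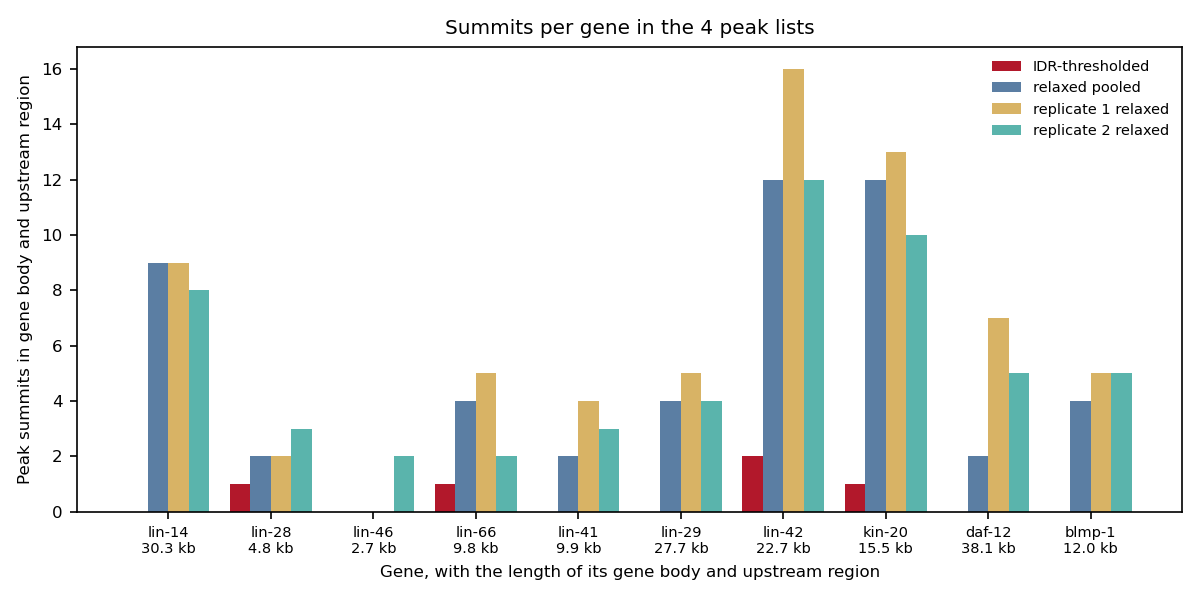
Number of peak summits (vertical axis) in the territory of each gene (horizontal axis, with the territory length in kb) for the IDR-thresholded, relaxed pooled and 2 replicate lists. The bars for lin-42 and kin-20 are the tallest, with 12 pooled summits each, and lin-46 has summits in replicate 2 alone.

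The IDR-thresholded sites of these genes did not rank equally in the replicates. None of the 5 was among the 822 strongest peaks of both replicates, and all 5 were among them in 1 replicate, 4 in replicate 1 and 1 in replicate 2. The lin-66 site (rank 830 in replicate 2) and the stronger lin-42 site (rank 860) missed that number narrowly. The matched peaks of kin-20 and lin-28 ranked 2175 and 2224 in replicate 2, and the overlapping kin-20 peak with its summit beyond 200 bp ranked 1574. Of all 822 IDR-thresholded peaks 561 (68.2%) were among the strongest 822 in both. The 5 sites rank between 476 and 777, and of the 302 IDR-thresholded peaks in that rank range 112 (37.1%) were. With the 822 strongest peaks of replicate 2 alone, 2 summits were left at the heterochronic genes, 1 at lin-42 and 1 at daf-12, and with those of replicate 1 alone there were 5 summits at 4 genes, 2 of them at kin-20 and 1 at lin-42. By that measure 4.99% and 4.88% of all protein-coding genes had a summit.

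Over the 51 pooled peaks, 26 (50.98%) were matched in both replicates within 200 bp, 23 in 1 replicate only and 2 in neither. Of the 51, 4 share a replicate 2 peak with a neighbour and 2 share a replicate 1 peak. Over the whole pooled list 43.3% were matched in both. A peak matched in both was found at 8 of the 10 genes, all but lin-29 and lin-46, where 25.4% of all protein-coding genes had one. That share is over genes of all lengths, with a median territory of 3.54 kb against 13.8 kb for the 10 genes. No share at matched length was taken. Seen from the replicate lists, 27 of the 66 replicate 1 summits (40.9%) had a partner in replicate 2, against 31.1% of all replicate 1 peaks. Of the 54 replicate 2 summits 29 (53.7%) had a partner in replicate 1, against 35.8% of all. Whether these shares differ from those of the whole lists was not tested, and the shares were not matched for signal. The 51 pooled peaks had a median signal of 40.7, against 35.9 over the whole pooled list.

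**Figure D3:**
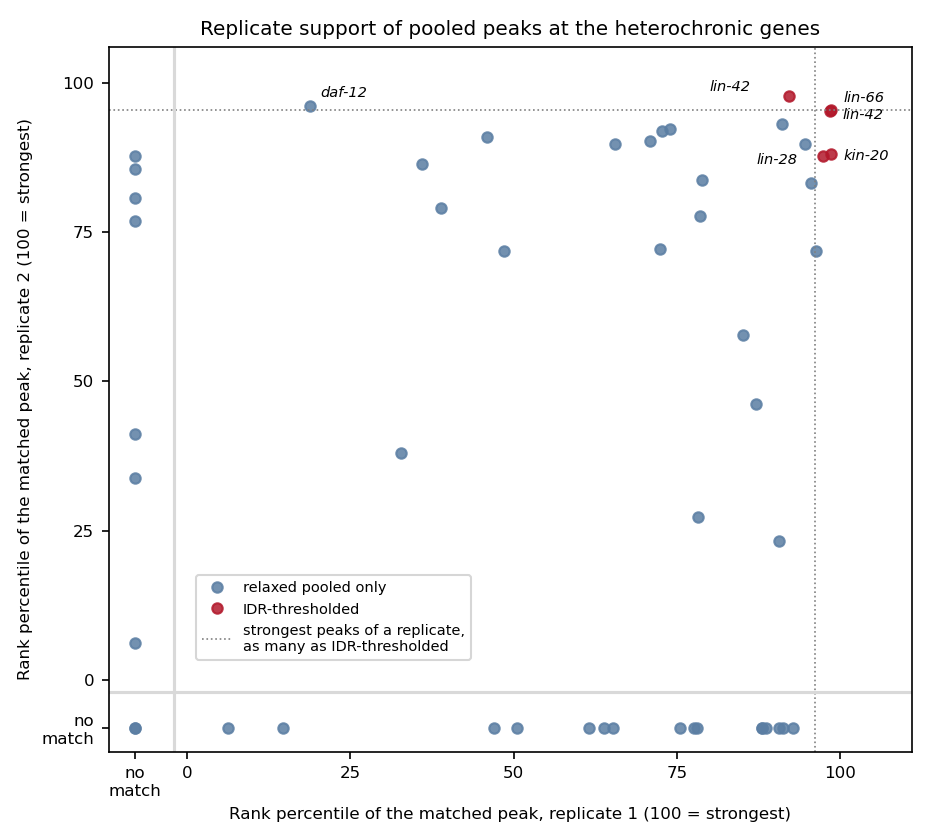
Rank percentile of the matched peak in replicate 1 (horizontal axis) and replicate 2 (vertical axis) for each of the 51 pooled peaks, where 100 is the strongest peak of a list and the outer strips hold peaks with no match. Dotted lines mark the 822 strongest peaks of each replicate. No point lies above both lines, and the 5 red points for IDR-thresholded peaks each pass 1 of them.

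Of the 51 pooled summits 29 were intronic, 16 were upstream, 3 were in coding exons and 3 in untranslated exons, or 56.9%, 31.4%, 5.88% and 5.88%. The same classes made up 51.3%, 30.1%, 11.03% and 7.58% of the bases of the territories. Of these summits 32 (62.7%) lay over 1 kb from every transcript start of the gene and 11 (21.6%) lay within 500 bp of one, against 56.1% and 29.3% of all pairs of a gene and a pooled summit in its territory. These shares lie near those of all pairs, and the difference was not tested. Of the 5 IDR-thresholded sites 3 lay over 1 kb from a start of their own gene, those of lin-42 and kin-20, as did 36.3% of all such pairs. In the window from 1000 bp upstream to 200 bp downstream of any own transcript start, lin-28 and lin-66 had an IDR-thresholded summit, where 3.55% of all genes had one. A pooled summit lay in that window at 6 of the 10 genes (lin-14, lin-28, lin-42, lin-46, lin-66 and kin-20), where 26.2% of all genes had one, and the one of lin-46 is the peak just outside its territory. A gene with more annotated starts has more such windows, and the shares of all genes were not matched for the number of starts. The IDR-thresholded summit of lin-28 and the pooled summits of lin-42 fell only in windows of later starts. For 10 of the 51 pooled summits the nearest 5' end of a protein-coding gene belonged to another gene. All 5 IDR-thresholded summits were nearest to the 5' end of their own gene. No pooled summit of the 10 genes lay within 200 bp of a tRNA, snoRNA, snRNA, rRNA or miRNA gene, a class of location that took 28.8% of the IDR-thresholded summits and 3.81% of the pooled ones.

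Beyond these genes, 27 further genes of the pathway were listed, of which 21 are protein-coding, 5 are microRNA genes and 1 is the long non-coding RNA gene lep-5. An IDR-thresholded summit was found for 5 of the 21 protein-coding genes (23.8%) and for 0 of the 6 non-coding ones. Of all protein-coding genes 5.04% had one, and 10.1% of those with a territory of 10 kb or more. A pooled summit was found for 19 of the 21 and 5 of the 6, where 43% of all protein-coding genes, and 79.9% of those with a territory of 10 kb or more, had one. The strongest was at hbl-1, the Hunchback-like gene that acts between lin-28 and lin-29, with signal 147 (rank 205) and replicate ranks of 199 and 222. Its summit at chrX:5812220 was 9922 bp upstream of hbl-1 and nearer to the 5' end of F13D11.3, which was 6298 bp away. Next came din-1, which encodes a corepressor of DAF-12. Its 2 summits, 1629 and 779 bp upstream, had signals of 145 (rank 210, beside the snoRNA gene ZK20.9) and 128 (rank 286). The replicate ranks were 423 and 125 for the first and 324 and 179 for the second, so both were among the 822 strongest in both replicates, as none of the 5 sites above was.

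The gene ain-1, whose product belongs to the microRNA silencing complex, had 2 overlapping peaks 994 and 784 bp upstream, with signals of 103 and 96.99. The first ranked 323 in replicate 1 and had no replicate 2 summit within 200 bp, and the second ranked 571 and 335. The nuclear receptor gene nhr-85 had one 3716 bp upstream (signal 102, ranks 4283 and 231), nearer to the 5' end of hpo-2. The TRIM-NHL gene nhl-2 had one 923 bp upstream (signal 84.5, ranks 695 and 816), nearer to the 5' end of tag-340. Just below the threshold, apl-1, the amyloid precursor-like gene, had a peak 2529 bp upstream with signal 77.38 and rank 825. Below it came sea-2 (64.5, beside the snoRNA gene K10G6.10), nhr-25 (57.9) and puf-9 (52.2). Of the microRNA genes, let-7 had a strongest pooled signal of 46.8, mir-48 and mir-241 shared a peak with 39.8, mir-84 had 29.9 and lin-4 had no summit. That strongest let-7 peak lay 1862 bp upstream of let-7 but 120 bp from the 5' end of C05G5.2. A weaker let-7 peak (signal 37.2) lay inside the gene, 551 bp downstream of its 5' end and within 200 bp of an annotated microRNA. It was matched in replicate 1 only, at rank 4931. The weakest let-7 peak lay 657 bp upstream of the gene. The mir-84 peak lay 8163 bp upstream of mir-84 but 165 bp from the 5' end of mboa-1. The territory of lin-4 was its 0.094 kb body alone, because it lies inside a protein-coding gene.

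**Figure D4:**
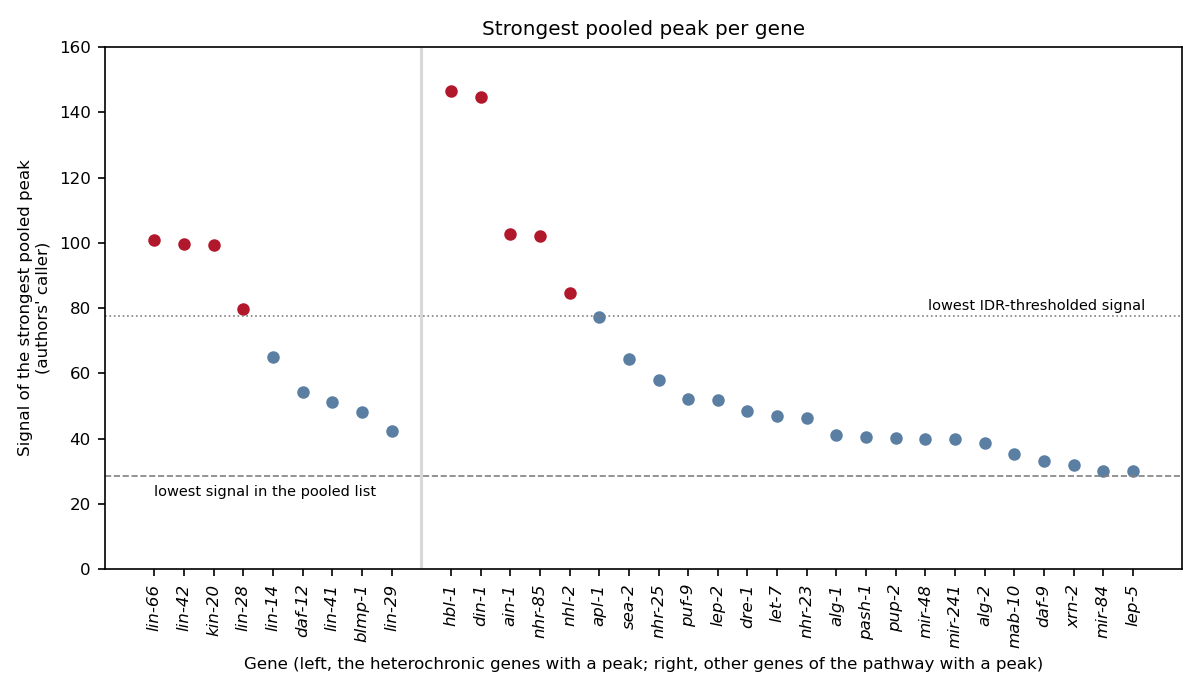
Signal of the strongest relaxed pooled peak (vertical axis, the authors' caller) in the territory of each gene (horizontal axis), with the 9 heterochronic genes that had a peak on the left and the further pathway genes on the right. Red points are IDR-thresholded. Values run from 100.8 at lin-66 to 42.3 at lin-29 on the left, and hbl-1 and din-1 stand highest on the right.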

How the data were processed

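Peaks came from the 4 deposited ce11 narrowPeak lists, namely the IDR-thresholded list, the relaxed pooled list and a relaxed list per replicate. The deposited signal value of a peak is a number from the authors' peak calling and was compared within one list only, and the authors' −log10 q-value shares its highest value over 849 pooled peaks, so signal gave the ranks. Per the notes deposited with the lists, the pooled list was made from the alignments of both replicates. No source used here names the aligner, the peak caller or the IDR threshold. The 822 IDR-thresholded peaks are the 822 strongest pooled peaks. Lists on ce10 were not used. Most peaks are 436 to 444 bp wide.

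Genes came from Ensembl release 115 (WBcel235, the same assembly as ce11), sequences from RefSeq, and 5 microRNA genes were matched by RefSeq symbol and identical coordinates. A pooled peak was matched to the strongest replicate summit within 200 bp. The 10 genes, the 27 further genes and the motifs were chosen with earlier results of these data known, so counts are set beside all protein-coding genes and no p-value is given. All 10 genes are named, with every IDR-thresholded summit or the strongest pooled peak, as are further genes with an IDR-thresholded summit and the next 4 by signal. Other named peaks, the microRNA genes and the limit of 12 summits were chosen after their values were seen. Alternatives varied the upstream limit, the overlap, the threshold, the match distance and the replicate. Assignment and matching were tested on simulated summits. Python 3.11.15, numpy 2.4.6, pandas 2.3.3 and matplotlib 3.10.9 were used.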

Additional observations from a re-analysis of the deposited data

How the results depend on the processing

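The 4 heterochronic genes with an IDR-thresholded summit, and their 5 summits, remained under upstream limits of 5 kb and 1 kb, a full 10 kb upstream whatever genes lie in it, an upstream region ended by any gene, both overlap rules, removal of peaks near small non-coding genes and use of nearest 5' ends. With 1 kb upstream 3.93% of all genes had such a summit, and with the full 10 kb 11% did. Among the stronger 50% of the list there were 0 summits at 0 of the 10 genes, where 2.53% of all genes had one. Leaving out each replicate gave 2 to 5 summits at 2 to 4 genes, 54 to 66 relaxed summits (51 in the pool) and 4 to 6 further pathway genes. Without replicate 1 the genes were lin-42 and daf-12. The stronger 50% of the pooled list held 31 of the 51 summits. Matches in both replicates numbered 21 to 29 of the 51 peaks over the match distances and overlaps, and 24 in the stronger 50%. The further pathway genes with an IDR-thresholded summit, 5 in the main count, numbered 3 with 1 kb upstream, 9 with the full 10 kb, 2 with a region ended by any gene, 2 in the stronger 50% and 2 by nearest 5' end. The median rank percentile of the strongest peak per gene was 91.9 in the pool, over 9 genes with a peak. It was 92.1 without replicate 1 (10 genes) and 95.5 without replicate 2 (9 genes). The lists differ in length, so these percentiles are not like for like. Unknown read depth means that a gene without a listed peak is not shown to lack binding. No paired analysis was possible because the series has 1 group.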

Other observations

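At daf-12 a pair of replicate summits without a pooled peak lay in an intron 20972 bp (replicate 1, signal 23.7, rank 5000) and 20811 bp (replicate 2, signal 15.2, rank 17518) downstream of the 5' end. Of the 66 replicate 1 summits at the 10 genes 42 had a pooled summit within 200 bp, as did 36 of the 54 replicate 2 summits.

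One pooled peak of kin-20, 1719 bp upstream of its 5' end (signal 34.8), has 28 overlapping matches to GAGAGA within 50 bp of its summit, and was matched in replicate 2 only, at rank 10717. The stronger peak 763 bp downstream of the kin-20 5' end had 6 such matches.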
